A study of Neurospora crassa with 24 samples.

Results

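Transcript accumulation was compared between the ∆*ve-1* ∆*wc-1*-labelled libraries and the wild type of *Neurospora crassa*, both kept in light, in tissue that forms the female sexual structures. The comparison rests on 6 of the 24 libraries of the study, chosen by their labels: 3 libraries of the double mutant in light and 3 of the wild type in light. The double mutant carries deletions of *ve-1* and *wc-1*, and the wild type carries neither. Both were spread as conidia on nitrogen-poor synthetic crossing medium at 22 °C for the 7 days in which protoperithecia, the unfertilized female organs, are formed, under constant fluorescent light, and were harvested 1 day before conidia of the other mating type were to be applied. For reference, 3 libraries each of the double mutant and of the wild type in the dark, and of the light-grown libraries labelled ∆*ve-1* and ∆*wc-1*, are used below. Tissue was scraped from whole plates, so a library can hold vegetative hyphae, aerial hyphae and conidia beside protoperithecia, and tissue of biological replicates was pooled before RNA extraction. The labels number the libraries of a condition as replicas without saying how the pools correspond to them, so the p-values measure the spread between these libraries, which may be technical.

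VE-1 belongs to the velvet family of fungal regulators, which bind DNA in complexes with one another and with the methyltransferase-like protein LAE-1 and connect light with development and secondary metabolism. WC-1 is the blue-light photoreceptor of *N. crassa*. Together with WC-2 it forms the white-collar complex, a transcription factor that binds the promoters of light-induced genes, among them the genes for carotenoid synthesis, the clock gene *frq* and *vvd*, whose product damps the light response. Light also promotes the formation of aerial hyphae and conidia, the asexual spores. The question addressed here is how the transcriptome of a strain without both regulators differs from that of the wild type in light before fertilization.

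The 6 libraries held 35793109 to 38132358 counts for the label ∆*ve-1* ∆*wc-1* and 33725400 to 35744865 counts for the wild type. Levels are given as CPM (edgeR's counts relative to the TMM-scaled library size) and are not divided by gene length, so they compare libraries and not genes. Within each label, composition varied between libraries. The share of counts in the top 10 genes of each library was 9.13, 21.3 and 7.43% in replicates 1 to 3 of the ∆*ve-1* ∆*wc-1*-labelled libraries, against 27.1, 18.7 and 26.5% in the wild type. In the range above 100 and up to 1000 counts per gene, 62.7, 81.3 and 60.4% of the counts were even numbers in the ∆*ve-1* ∆*wc-1*-labelled libraries, against 90.2, 80.3 and 81.7% in the wild type. Replicate 2 of the ∆*ve-1* ∆*wc-1*-labelled libraries was thus closer to the wild type than replicates 1 and 3 were in both respects, and the part of this difference in the results was not tested beyond the 2 covariates given in the closing section. Spearman's correlation over all genes was 0.922 to 0.930 among the 3 ∆*ve-1* ∆*wc-1*-labelled libraries, 0.940 to 0.961 among those of the wild type and 0.835 to 0.923 between the labels. Replicate 3 of the ∆*ve-1* ∆*wc-1*-labelled light libraries was closest to replicate 1 of the dark libraries of that label (0.993), which is above every value within the label in light. Light replicates 1 and 2 were likewise closer to a dark library of that label than to any other light library of it. The values were 0.973 for light replicate 1 with dark replicate 3, and 0.972 for replicate 2 of both. Over all 24 libraries, however, replicate 2 in light and replicate 2 in the dark were closest to a library of another label. This was replicate 1 of the dark libraries labelled ∆*ve-1* (0.977 and 0.975), and the cause was not tested. For light replicate 3 and dark replicate 1, the chi-square of the counts per degree of freedom was 72.4. It was 2084.7 for replicates 1 and 2 of the ∆*ve-1* ∆*wc-1*-labelled light libraries and 538 for replicates 1 and 2 of the wild type in light. Light replicate 3 and dark replicate 1 were thus closer than either of these replicate pairs but did not agree within sampling noise, and both libraries were kept. Biological variation between replicates (BCV) was 0.519 among the ∆*ve-1* ∆*wc-1*-labelled libraries and 0.425 among those of the wild type.

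The targeted genes were examined first. *ve-1* had 1.60, 4.40 and 7.81 CPM in the ∆*ve-1* ∆*wc-1*-labelled libraries, against 238, 176 and 286 CPM in the wild-type libraries. The groups did not overlap, and the log2 fold change was −5.66 (edgeR adjusted p = 2.14e-05, SE 0.63). *wc-1* had 15.5, 25.8 and 113 CPM in the ∆*ve-1* ∆*wc-1*-labelled libraries, against 42.1, 7.12 and 41.2 CPM in the wild-type libraries. The values of *wc-1* overlapped, with the highest value in replicate 3 of the libraries labelled as lacking it, and the log2 fold change was 0.77 (edgeR adjusted p = 0.554, SE 0.75). The light libraries labelled ∆*wc-1* likewise held 25 ± 10.6 CPM for *wc-1* (SD, n = 3). The *ve-1* counts therefore fit the label, whereas the *wc-1* counts do not show a loss of the transcript. The per-gene counts do not say which part of *wc-1* the reads came from, so the strain is called here by its label. *wc-2*, which encodes the partner of WC-1, did not pass the test, with a log2 fold change of 0.81 (edgeR adjusted p = 0.162). In the velvet list, neither *vos-1*, a further velvet gene, nor *lae-1* passed it, with log2 fold changes of −1.23 (edgeR adjusted p = 0.295) and 1.39 (edgeR adjusted p = 0.164).

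**Figure D1:**
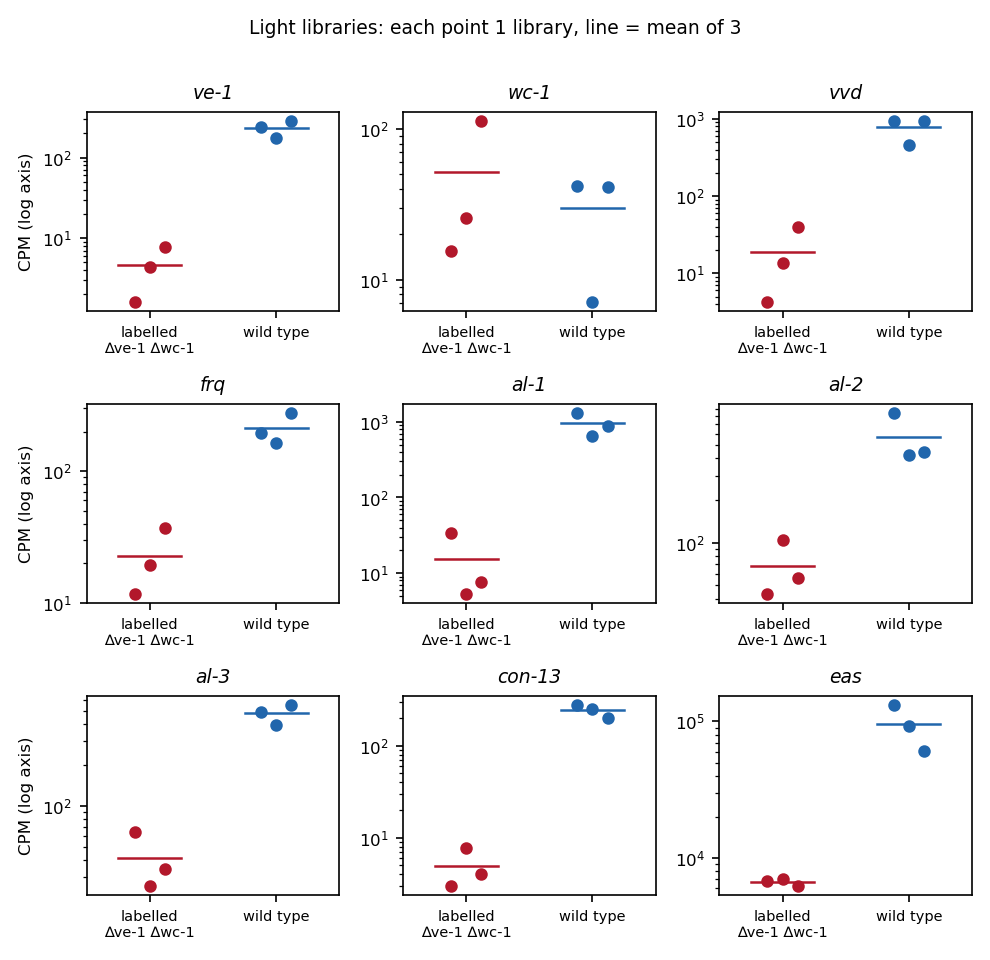
CPM (log axis) of 9 genes in the 3 light libraries labelled ∆ve-1 ∆wc-1 (left, red) and the 3 wild-type light libraries (right, blue); each point is 1 library and each line the mean of 3. The 2 groups of points are apart for every gene shown except wc-1, whose points overlap.

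Of 9412 genes tested, 615 (6.53%) were differentially expressed genes (DEGs) between the ∆*ve-1* ∆*wc-1*-labelled libraries and the wild type in light, of which 286 (3.04%) were higher and 329 (3.5%) were lower in the ∆*ve-1* ∆*wc-1*-labelled libraries. DEGs had to pass the quasi-likelihood test of edgeR at a Benjamini-Hochberg adjusted p below 0.05 over all genes tested, and to differ by more than 1 on the log2 scale. The median log2 fold change of all genes tested was 0.14. The 3 libraries of one label lay entirely above or below those of the other for 573 of the DEGs (93.2%) and for 22.3% of all genes tested. The number of DEGs moved with single libraries: it was 214 without replicate 1 of the wild type, 265 without replicate 3 and 415 without replicate 2 of the ∆*ve-1* ∆*wc-1*-labelled libraries, and 1086 without replicate 1 of the light libraries labelled ∆*wc-1*, which enter this comparison only through the shared fit. Leaving out any of the other 3 compared libraries gave 477 to 840. A core of 172 DEGs (60 higher and 112 lower) was called with each of the 6 libraries left out in turn. The genes named by size of change below come from this core.

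In 20 lists of genes with known roles, 24 of 183 members tested (13.1%) were DEGs, 6 higher and 18 lower, beside 6.53% of all genes tested. The median log2 fold change over these members was 0.03, beside 0.14 for all genes. DEGs were present in 13 lists, among them those for light perception, carotenoid synthesis, conidia, sexual development, pigments, cell wall synthesis, and glycogen and trehalose. No member of the lists for the pheromone response, osmosensing, hyphal fusion and STRIPAK, G-protein-coupled receptors and cAMP, cellulases, the glyoxylate cycle with gluconeogenesis, or RNA silencing was a DEG. The medians of the last 4 of these lists were 0.34, 0.26, 0.03 and −0.03, and 1 member of the RNA silencing list was too low to be tested. The predicted receptor gene *gpr-21*, a DEG described below, is not in the receptor list.

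**Figure D2:**
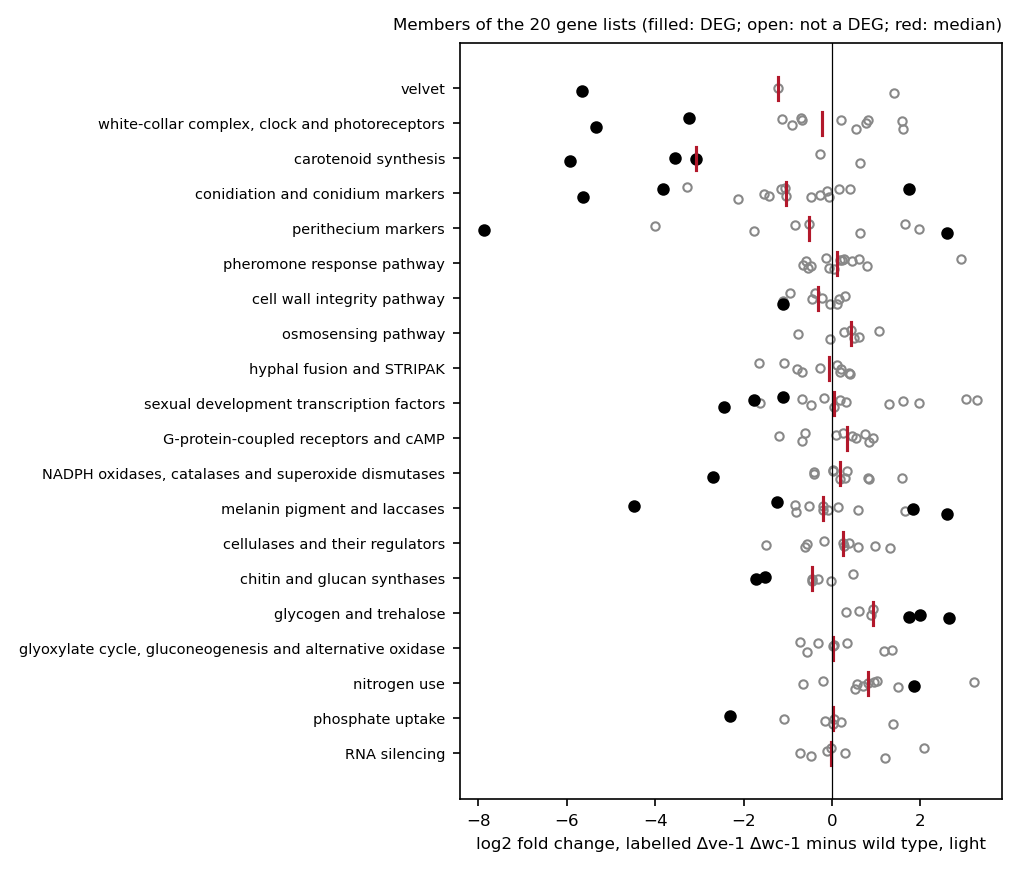
Log2 fold change in light, libraries labelled ∆ve-1 ∆wc-1 minus wild type, of the members of 20 gene lists; each point is 1 gene, filled points are DEGs (edgeR), open points are not, and the red line is the median of the list. The carotenoid list has its median at −3.07, and all 7 members of the glycogen and trehalose list lie above 0.

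Light perception was the first group examined. Of 12 members of the white-collar complex, clock and photoreceptor list, 2 were DEGs, both lower in the ∆*ve-1* ∆*wc-1*-labelled libraries, and the median log2 fold change was −0.23. The share called was 16.7%, beside 6.53% of all genes tested, and 2 or 3 members were DEGs with single libraries left out. *vvd* had 4.24, 13.7 and 39.5 CPM in the ∆*ve-1* ∆*wc-1*-labelled libraries, against 938, 463 and 941 CPM in the wild-type libraries. The groups did not overlap, and the log2 fold change of this flavin-binding photoreceptor gene was −5.35 (edgeR adjusted p = 0.000389, SE 0.79). *frq* had 11.7, 19.3 and 37 CPM in the libraries so labelled, against 196, 164 and 278 CPM in the wild type. The groups did not overlap for this core gene of the circadian clock, with a log2 fold change of −3.23 (edgeR adjusted p = 0.000371, SE 0.46). The remaining 10 members were not DEGs, among them *cry*, a cryptochrome gene (−0.90), *phr*, which encodes the photolyase (−0.69), *phy-1*, a phytochrome gene (1.58), and *csp-1*, a repressor under clock control (0.54).

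A total of 3 of the 5 genes for carotenoid synthesis fell. The list had a median log2 fold change of −3.07, with 60% called beside 6.53% of all genes tested. *al-1* had 33.9, 5.28 and 7.61 CPM in the ∆*ve-1* ∆*wc-1*-labelled libraries, against 1322, 643 and 896 CPM in the wild-type libraries. *al-1* encodes phytoene desaturase, and its log2 fold change was −5.93 (edgeR adjusted p = 0.000875, SE 0.96). *al-2* had 43, 104 and 56.2 CPM in the libraries so labelled, against 844, 425 and 444 CPM in the wild type. For *al-2*, the phytoene synthase gene, the log2 fold change was −3.07 (edgeR adjusted p = 0.000226, SE 0.42). *al-3* had 64.2, 25.8 and 34.1 CPM in the libraries so labelled, against 491, 396 and 558 CPM in the wild type. *al-3* encodes geranylgeranyl pyrophosphate synthase, which supplies the precursor, and its log2 fold change was −3.54 (edgeR adjusted p = 0.00301, SE 0.68). The libraries of the 2 labels did not overlap for any of these 3 genes, and all 3 remained DEGs with each of the 6 libraries left out. The genes for the later steps were not DEGs: *ylo-1*, which encodes an aldehyde dehydrogenase, had a log2 fold change of 0.64 (edgeR adjusted p = 0.143), and *cao-2*, a carotenoid oxygenase gene, one of −0.27 (edgeR adjusted p = 0.684). *NCU00584*, which lies next to *al-2* on chromosome I, was among the most abundant DEGs. It had 33.2, 48.9 and 12 CPM in the libraries so labelled, against 2504, 1211 and 607 CPM in the wild type, and a log2 fold change of −5.52 (edgeR adjusted p = 0.00130).

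Conidiation genes gave a mixed picture. Of 16 members of the conidiation list, 2 were lower, 1 was higher and 13 were not DEGs, with a median log2 fold change of −1.05. The share called was 18.8%, beside 6.53% of all genes tested, and 1 to 4 members were DEGs with single libraries left out. *eas* had 6817, 7061 and 6248 CPM in the ∆*ve-1* ∆*wc-1*-labelled libraries, against 132520, 92964 and 60746 CPM in the wild-type libraries. *eas* encodes the hydrophobin that forms the rodlet coat of aerial hyphae and conidia. The groups did not overlap, and the log2 fold change was −3.83 (edgeR adjusted p = 0.0267, SE 1.01). The call was lost without replicate 1 of the wild type (adjusted p = 0.0849) and without replicates 1, 2 and 3 of the ∆*ve-1* ∆*wc-1*-labelled libraries (adjusted p = 0.0601, 0.0735 and 0.111, all by edgeR). *eas* was also not called with edgeR on the 6 libraries alone (adjusted p = 0.139) or limma-voom (0.263). *con-13* had 2.99, 7.75 and 4.02 CPM in the libraries so labelled, against 279.8, 254 and 199.5 CPM in the wild type. *con-13*, a gene expressed during conidiation, had a log2 fold change of −5.64 (edgeR adjusted p = 0.00868, SE 1.22) and was just outside the threshold without replicate 3 of the ∆*ve-1* ∆*wc-1*-labelled libraries (edgeR adjusted p = 0.0501). *con-13* was also not called with limma-voom (adjusted p = 0.0537). *ccg-9*, which encodes trehalose synthase, was the member that rose.

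Other light-inducible conidial genes did not pass the test in edgeR. *con-6* had 458, 854 and 2858 CPM in the libraries so labelled, against 3875, 19258 and 17230 CPM in the wild type, with no overlap and a log2 fold change of −3.27 (edgeR adjusted p = 0.0713). *bli-4* had a log2 fold change of −2.13 (edgeR adjusted p = 0.0670), also with no overlap. DESeq2 called both, with adjusted p = 0.00548 for *con-6* and 0.018 for *bli-4* on all libraries. For *con-10* the libraries overlapped, at 345, 1791 and 5238 CPM in the libraries so labelled, against 831, 6987 and 2372 CPM in the wild type, and its log2 fold change was −0.47 (edgeR adjusted p = 0.776). *fl*, which encodes the transcription factor that drives conidiophore formation, had 58.6, 163 and 330.4 CPM in the libraries so labelled, against 523, 241 and 393 CPM in the wild type, and a log2 fold change of −1.07 (edgeR adjusted p = 0.306). The summed level of 8 conidial markers was 8690, 11874 and 19132 CPM in the ∆*ve-1* ∆*wc-1*-labelled libraries, against 139440, 123440 and 85161 CPM in the wild type. *eas* made up most of this sum in each wild-type library. Without it the other 7 markers summed to 1872, 4813 and 12884 CPM in the ∆*ve-1* ∆*wc-1*-labelled libraries, against 6919, 30472 and 24416 CPM in the wild type, and these sums overlapped. All 8 markers were detected, and 2 of them, *eas* and *con-13*, were DEGs. In whole-plate tissue, fewer conidia and less of these transcripts per cell cannot be told apart. These 2 markers were lower in the same libraries as the light-response and carotenoid genes above, and the part of conidia in those results was not tested. The summed level of 5 markers of protoperithecium-forming tissue overlapped, at 363, 256 and 586 CPM in the ∆*ve-1* ∆*wc-1*-labelled libraries, against 208, 192 and 378 CPM in the wild type, and none of the 5 was a DEG.

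Among 9 perithecium markers, 1 was a lower DEG and 1 was a higher DEG (22.2% called, beside 6.53% of all genes tested). Leaving out single libraries gave 1 to 3 DEGs in this list, and edgeR on the 6 libraries alone gave 1. The median log2 fold change of the 9 was −0.52, with 4 above and 5 below 0. *app* had 0.976, 0.754 and 3.92 CPM in the ∆*ve-1* ∆*wc-1*-labelled libraries, against 281, 807 and 244 CPM in the wild-type libraries. *app* encodes an abundant perithecial protein, and its log2 fold change was −7.86 (edgeR adjusted p = 0.0168, SE 1.89). The call was lost without replicate 2 of the ∆*ve-1* ∆*wc-1*-labelled libraries (edgeR adjusted p = 0.064). *app* was also not called with limma-voom (adjusted p = 0.133). *poi-2*, another gene of high expression in perithecia, also had no overlap, at 153, 634 and 102 CPM in the libraries so labelled, against 2955, 8365 and 2955 CPM in the wild type. Its log2 fold change of −4.01 (edgeR adjusted p = 0.102) did not pass the test in edgeR, whereas DESeq2 on all libraries gave an adjusted p of 0.00938. The summed level of 4 of the 9 markers (*app*, *poi-2*, *asd-1* and *asd-3*) was 197, 785 and 183 CPM in the ∆*ve-1* ∆*wc-1*-labelled libraries. In the wild type it was 3414, 9324 and 3381 CPM, with no overlap, although no plate had been fertilized. Replicate 2 was the highest library of each label. Without *poi-2*, which made up most of the sum, the other 3 markers summed to 43.4, 151 and 81.5 CPM in the ∆*ve-1* ∆*wc-1*-labelled libraries, against 459.7, 959 and 426 CPM in the wild type. *app* made up most of this remainder in each wild-type library. In the dark the sum of the 4 overlapped, at 187, 6342 and 88.9 CPM in the libraries so labelled, against 1752, 7240 and 312 CPM in the wild type. The sum leaves out *lacm-1* and *per-1*, which were below 0 in light, and *fmf-1*, *T* and *ty-2*, which were above 0. Log2 fold changes above 0 in light that did not pass the test were those of *asd-1* (0.64), *fmf-1* (1.97) and *ty-2* (1.66). *T*, the tyrosinase gene, was the DEG that rose, and it is described with the pigment genes below.

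A group of 3 transcription factor genes of sexual development fell, of 15 in the list, whose median log2 fold change was 0.05. The share called was 20%, beside 6.53% of all genes tested. It ranged from 0 to 4 genes with single libraries left out, and was 0 in edgeR on the 6 libraries alone. *asm-1* had 329, 231 and 114 CPM in the ∆*ve-1* ∆*wc-1*-labelled libraries, against 2112, 759.8 and 798 CPM in the wild-type libraries. *asm-1* encodes an APSES-type regulator needed for female development and ascospore maturation. The groups did not overlap, and the log2 fold change was −2.44 (edgeR adjusted p = 0.0155, SE 0.58), although the call was lost without replicate 1 of the wild type (edgeR adjusted p = 0.108) and without replicate 3 of the ∆*ve-1* ∆*wc-1*-labelled libraries (0.0831). *asm-1* was also not called with edgeR on the 6 libraries alone (adjusted p = 0.0947). *mad-1* had 90.4, 60.1 and 31.7 CPM in the libraries so labelled, against 301, 224 and 98.4 CPM in the wild type. *mad-1* encodes a MADS-box protein, with a log2 fold change of −1.77 (edgeR adjusted p = 0.0332, SE 0.49). It was not called without replicates 1 and 2 of the wild type (edgeR adjusted p = 0.176 and 0.0743) or without replicates 2 and 3 of the ∆*ve-1* ∆*wc-1*-labelled libraries (0.0847 and 0.158). *mad-1* was also not called with edgeR on the 6 libraries alone (adjusted p = 0.130), the top-10 share as a covariate (0.0817) or the even-count share as a covariate (0.120). *adv-1* had 50.3, 20.2 and 26.5 CPM in the libraries so labelled, against 64.9, 66.7 and 76 CPM in the wild type. *adv-1* encodes a zinc cluster regulator required for cell fusion and protoperithecia, and its log2 fold change of −1.10 (edgeR adjusted p = 0.0417, SE 0.32) held only without replicate 1 of the ∆*ve-1* ∆*wc-1*-labelled libraries. With the other 5 libraries left out in turn its edgeR adjusted p was 0.0703 to 0.168. *adv-1* was also not called with DESeq2 on the 6 libraries (adjusted p = 0.162), edgeR on the 6 libraries alone (0.217) or limma-voom (0.0526). The 3 genes of the *mat A* idiomorph were not DEGs, although for each of them every library so labelled lay above all wild-type libraries. *mat A-1*, the mating type regulator, had 80.9, 75.1 and 179 CPM in the libraries so labelled, against 28, 48.6 and 60.3 CPM in the wild type, with a log2 fold change of 1.29 (edgeR adjusted p = 0.0984). Raw counts were 78, 22 and 181 for *mat A-2*, against 0, 10 and 12 in the wild type. For *mat A-3* they were 243, 117 and 493, against 0, 0 and 64. For *fsd-1*, a regulator of female sexual development, the value was 1.61 (edgeR adjusted p = 0.116) with overlapping libraries, and 2.69 (edgeR adjusted p = 0.0157), past the threshold, without replicate 3 of the wild type.

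No transcript of the pheromone response pathway passed the test, beside 6.53% of all genes tested. At that share a list of this size would hold few DEGs. All 14 members were tested, and their median log2 fold change was 0.12, with 8 above and 6 below 0. The mitogen-activated protein kinase (MAPK) cascade of this pathway runs from NRC-1 through MEK-2 to MAK-2 and the transcription factor PP-1. *mak-2* had 389.8, 199.6 and 277 CPM in the ∆*ve-1* ∆*wc-1*-labelled libraries, against 212, 234 and 271 CPM in the wild-type libraries. The libraries overlapped, and the log2 fold change was 0.27 (edgeR adjusted p = 0.738, SE 0.42). The corresponding log2 fold changes were 0.45 (edgeR adjusted p = 0.497) for *mek-2*, −0.07 (edgeR adjusted p = 0.940) for *nrc-1* and 0.18 (edgeR adjusted p = 0.793) for *pp-1*. With either of the 2 library properties as a covariate, *nrc-1* had −0.89 and −0.93 (edgeR adjusted p = 0.043 and 0.0344), short of the fold threshold. *mak-1*, the MAPK gene of the cell wall integrity pathway, had a log2 fold change of −0.04 (edgeR adjusted p = 0.964), and *adv-1* was the only DEG among 10 members of that list. The pheromone precursor gene *ccg-4* varied widely, with 758, 27975 and 12637 CPM in the libraries so labelled, against 419.5, 2034 and 2985 CPM in the wild type. Its log2 fold change of 2.93 (edgeR adjusted p = 0.160) was not a DEG in edgeR and was one in DESeq2 on all libraries (adjusted p = 0.0424). None of 7 osmosensing genes and none of 10 genes of hyphal fusion and the STRIPAK complex was a DEG, with medians of 0.43 and −0.07. With 6.53% of all genes called, lists of these sizes would also hold few DEGs.

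Among genes of reserve carbohydrates, 3 rose and none fell (42.9% called, beside 6.53% of all genes tested). All 7 members of the glycogen and trehalose list had log2 fold changes above 0 (0.32 to 2.64, median 0.92), while 4 did not pass the test. In edgeR on the 6 libraries alone, 1 of the 7 was a DEG, and with single libraries left out 1 to 3 were. *gnn* had 858, 657 and 628 CPM in the ∆*ve-1* ∆*wc-1*-labelled libraries, against 88.1, 89.1 and 167 CPM in the wild-type libraries. *gnn* encodes glycogenin, which primes glycogen synthesis, and the log2 fold change was 2.64 (edgeR adjusted p = 0.0115, SE 0.59), with the call lost without replicate 1 of the wild type (edgeR adjusted p = 0.0734). *ccg-9* had 296, 344 and 343 CPM in the libraries so labelled, against 71.7, 96.4 and 125 CPM in the wild type. The log2 fold change of this trehalose synthase gene was 1.74 (edgeR adjusted p = 0.00531, SE 0.36), and it was called with each of the 6 libraries left out. *ccg-9* was however not called with edgeR on the 6 libraries alone (adjusted p = 0.0847). *tre-1* had 108, 240.1 and 257 CPM in the libraries so labelled, against 41.8, 45.5 and 65.3 CPM in the wild type. *tre-1* encodes trehalase, which splits trehalose, so 1 gene for making this sugar (*ccg-9*) and 1 for splitting it rose. *tps-1*, another gene of this list, was not a DEG, with raw counts of 7861, 4157 and 13374 in the libraries so labelled, against 4056, 3540 and 6157 in the wild type. The log2 fold change of *tre-1* was 1.99 (edgeR adjusted p = 0.0405, SE 0.57), and the call was lost without replicate 1 or 2 of the wild type (edgeR adjusted p = 0.168 and 0.111) and without replicate 2 or 3 of the ∆*ve-1* ∆*wc-1*-labelled libraries (0.0892 and 0.135). *tre-1* was also not called with edgeR on the 6 libraries alone (adjusted p = 0.0541), limma-voom (0.137), the top-10 share as a covariate (0.0515) or the even-count share as a covariate (0.0518).

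Nitrogen and phosphate genes held 1 DEG each. *gln-2* had 2809.8, 1751 and 879 CPM in the ∆*ve-1* ∆*wc-1*-labelled libraries, against 521, 546 and 431 CPM in the wild-type libraries. *gln-2* encodes glutamine synthetase, and its log2 fold change was 1.86 (edgeR adjusted p = 0.00994, SE 0.41), called with each of the 6 libraries left out. *gln-2* was however not called with edgeR on the 6 libraries alone (adjusted p = 0.190). The other 10 nitrogen genes were not DEGs, and the median of the list was 0.82. *pho-4* had 1.85, 1.59 and 1.98 CPM in the libraries so labelled, against 7.73, 10.4 and 8.89 CPM in the wild type. *pho-4* encodes a repressible phosphate permease, with a log2 fold change of −2.31 (edgeR adjusted p = 0.0169), and was not called without replicate 2 or 3 of the ∆*ve-1* ∆*wc-1*-labelled libraries (edgeR adjusted p = 0.058 and 0.061). *pho-4* was also not called with edgeR on the 6 libraries alone (adjusted p = 0.0947) or limma-voom (0.178). The other 6 phosphate genes were not DEGs.

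Of 11 genes for NADPH oxidases, catalases and superoxide dismutases, only *cat-3* was a DEG. *cat-3* had 15.3, 8.63 and 10.003 CPM in the ∆*ve-1* ∆*wc-1*-labelled libraries, against 98.9, 59.8 and 61.8 CPM in the wild-type libraries. *cat-3* encodes a large-subunit catalase of growing hyphae, and the groups did not overlap, with a log2 fold change of −2.70 (edgeR adjusted p = 0.00104, SE 0.45). It was called with each of the 6 libraries left out. *cat-3* was however not called with limma-voom (adjusted p = 0.0569). *nox-1*, the NADPH oxidase gene needed for female development, had a log2 fold change of 0.02 (edgeR adjusted p = 0.981). Pigment genes went both ways, with 2 lower and 2 higher among 13 (30.8% called, beside 6.53% of all genes tested). The list held 1 to 4 DEGs with single libraries left out, and 1 in edgeR on the 6 libraries alone. *pig-1* had 0.582, 0.670 and 0.333 CPM in the libraries so labelled, against 14.9, 11.3 and 8.95 CPM in the wild type. *pig-1*, a gene of melanin pigment synthesis, had a log2 fold change of −4.47 (edgeR adjusted p = 0.000496, SE 0.67) and was called with each of the 6 libraries left out. *ty-6*, a tyrosinase gene, was lower, at −1.24 (edgeR adjusted p = 0.0429), although its libraries overlapped. *T* had 3.78, 34.8 and 51 CPM in the libraries so labelled, against 3.62, 7.95 and 3.18 CPM in the wild type, and a log2 fold change of 2.60 (edgeR adjusted p = 0.0371), with replicate 1 of the libraries so labelled within the wild-type range. The laccase gene *lacc* was higher, at 1.83 (edgeR adjusted p = 0.0320). Calls for *T* and *lacc* were lost without replicate 1 or 3 of the wild type and without replicate 2 or 3 of the ∆*ve-1* ∆*wc-1*-labelled libraries (edgeR adjusted p = 0.0729 to 0.175), and *ty-6* was not called without any 1 of replicates 1 and 2 of the wild type or replicates 2 and 3 of those libraries (0.115 to 0.192). *T* was also not called with edgeR on the 6 libraries alone (adjusted p = 0.123) or limma-voom (0.329). *lacc* was also not called with edgeR on the 6 libraries alone (adjusted p = 0.127) or limma-voom (0.127). *ty-6* was also not called with DESeq2 on the 6 libraries (adjusted p = 0.153), edgeR on the 6 libraries alone (0.254), limma-voom (0.0573), the top-10 share as a covariate (0.0680) or the even-count share as a covariate (0.0727).

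The DEGs among cell wall synthesis genes were lower. Of 7 chitin and glucan synthase genes, 2 were lower and 5 were not DEGs, with a median of −0.45. The share called was 28.6%, beside 6.53% of all genes tested. It rested on few genes, as 0 to 2 were DEGs with single libraries left out. In edgeR on the 6 libraries alone, 1 was a DEG. *do* had 321, 298 and 353 CPM in the ∆*ve-1* ∆*wc-1*-labelled libraries, against 1584, 542 and 674 CPM in the wild-type libraries. *do* encodes the 1,3-beta-glucan synthase subunit, and its log2 fold change was −1.53 (edgeR adjusted p = 0.0125), lost without replicate 1 of the wild type (edgeR adjusted p = 0.126). *do* was also not called with edgeR on the 6 libraries alone (adjusted p = 0.226). *chs-2* had 22.8, 12.8 and 16.5 CPM in the libraries so labelled, against 74.1, 44.3 and 53.8 CPM in the wild type. *chs-2* encodes a chitin synthase, with a log2 fold change of −1.72 (edgeR adjusted p = 0.0204). It was not called without replicate 1 of the wild type (edgeR adjusted p = 0.106) or without replicate 2 or 3 of the ∆*ve-1* ∆*wc-1*-labelled libraries (0.0803 and 0.0866).

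The largest falls in the core of DEGs called with each of the 6 libraries left out were in genes that were nearly silent in the ∆*ve-1* ∆*wc-1*-labelled libraries. *gpr-21* (*NCU05189*), a predicted G-protein-coupled receptor gene, had 4, 0 and 9 raw counts in these libraries, against 2690, 3653 and 904 in the wild type. Its log2 fold change was −9.78 (edgeR adjusted p = 2.12e-05, SE 1.07). *NCU16408* had 6, 0 and 4 raw counts, against 848, 1247 and 448 in the wild type, and a log2 fold change of −8.62 (edgeR adjusted p = 0.000550). *NCU17113* had 20, 16 and 118 raw counts, against 4592, 4145 and 17228 in the wild type (log2 fold change −7.95, edgeR adjusted p = 0.000359). *NCU16408* was also not called with limma-voom (adjusted p = 0.0578). The annotation used gives no function for the last 2. With so few counts on one side, the sizes of these 3 changes depend on the fitting of low counts, while the groups stay apart. *mkr-5* had 8.58, 13.2 and 10.02 CPM in the libraries so labelled, against 2929.5, 3901 and 706 CPM in the wild type. The annotation gives no function for *mkr-5* either, and its log2 fold change was −7.89 (edgeR adjusted p = 0.000381).

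A neighbouring pair on chromosome I fell together. *gao-1* had 3.16, 5.78 and 2.94 CPM in the ∆*ve-1* ∆*wc-1*-labelled libraries, against 415, 261 and 210.5 CPM in the wild-type libraries. *gao-1* (*NCU09209*) encodes a galactose oxidase, and its log2 fold change was −6.23 (edgeR adjusted p = 4.66e-05, SE 0.73). *NCU09210* had 8.56, 2.60 and 2.94 CPM in the libraries so labelled, against 1264, 952 and 635 CPM in the wild type. *NCU09210* encodes a dyp-type peroxidase, with a log2 fold change of −7.65 (edgeR adjusted p = 7.50e-05, SE 0.96). The 2 genes lie at positions 5845361 to 5847904 and 5849601 to 5852150 of chromosome I of the NC12 assembly. The other genes among the 10 largest falls were *NCU14029* (−7.62), *NCU06413* (−7.18), *NCU17138* (−6.20) and *al-1*. *NCU17138* was also not called with limma-voom (adjusted p = 0.0544). Within this core, *NCU05395* was the most abundant gene that fell, with 718, 342 and 325 CPM in the libraries so labelled, against 10312, 4989.6 and 2281 CPM in the wild type (log2 fold change −3.66, edgeR adjusted p = 0.00427), followed by *mkr-5*, *NCU14029*, *NCU00584* and *al-1*. *NCU05395* was also not called with edgeR on the 6 libraries alone (adjusted p = 0.0541).

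In the same core, the genes that rose most were led by a set with hardly any transcript in the wild type. *NCU08113* had 8.83, 35.8 and 146 CPM in the ∆*ve-1* ∆*wc-1*-labelled libraries, against 0, 1.10 and 2.92 CPM in the wild type, and a log2 fold change of 5.55 (edgeR adjusted p = 0.00278, SE 1.05). *NCU07983* (5.40) and *NCU09464* (5.08) followed, and these 3 genes shared the same order of libraries in that label, lowest in replicate 1 and highest in replicate 3. *NCU10761*, annotated as a methyltransferase, was instead highest in replicate 1, with 273, 36.1 and 42 CPM in the libraries so labelled, against 4.75, 4.92 and 1.94 CPM in the wild type (log2 fold change 4.92, edgeR adjusted p = 0.00150). *adh-1* had 2494, 379.9 and 255 CPM in the libraries so labelled, against 61.2, 63.2 and 53.1 CPM in the wild type. *adh-1* encodes alcohol dehydrogenase I, with a log2 fold change of 4.14 (edgeR adjusted p = 0.00278, SE 0.78). *cuo-3*, a peroxisomal copper amine oxidase gene, had 539, 115 and 113 CPM in the libraries so labelled, against 22, 22.4 and 20.8 CPM in the wild type, and a log2 fold change of 3.56 (edgeR adjusted p = 0.000389). For *adh-1* and *cuo-3* replicate 1 of the libraries so labelled stood far above replicates 2 and 3, and all 3 were above the wild type. Also among the 10 largest rises were *NCU08773* (4.33), *NCU08337* (4.29), *NCU05935* (4.26) and *NCU05236* (3.73). In limma-voom, 5 of these 10 were not called, *NCU08113* (adjusted p = 0.0855), *NCU07983* (0.1), *NCU09464* (0.0641), *NCU10761* (0.069) and *NCU05935* (0.166). Within the core, the most abundant genes that rose were *gln-2*, *adh-1*, *emp-7*, *NCU05236* and *ccg-9*. *emp-7* encodes enolase, the glycolytic enzyme, and had 1286, 932 and 699.5 CPM in the libraries so labelled, against 391, 263 and 342 CPM in the wild type (log2 fold change 1.55, edgeR adjusted p = 0.0119). *emp-7* was also not called with edgeR on the 6 libraries alone (adjusted p = 0.203).

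**Figure D3:**
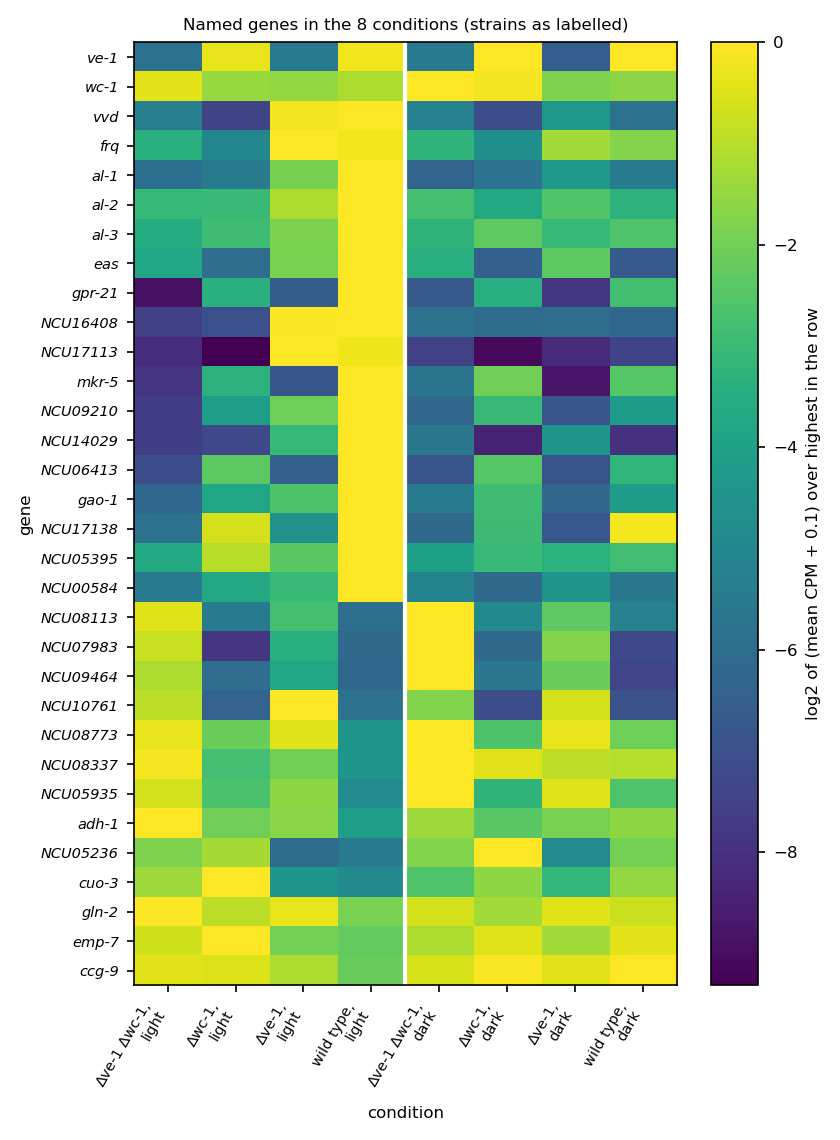
Mean CPM of 32 named genes in the 8 conditions (3 libraries each), as log2 of the mean plus 0.1 CPM over the highest condition of the same gene; rows are genes, columns are strains as labelled, first in light and then in the dark. vvd, frq, NCU16408 and NCU17113 are high only in the ∆ve-1 and wild-type light columns among the light columns, whereas gpr-21, NCU06413 and mkr-5 are low in both columns that carry ∆ve-1.

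The light-grown single mutants allowed the named changes to be sorted by strain, a grouping made after the values were seen. In the light libraries labelled ∆*wc-1*, the top 10 genes held 26.7, 7.31 and 6.91% of counts in replicates 1 to 3. Even counts made up 93.3, 62.2 and 63.9% in the same order, so replicate 1 stood apart. The comparisons with the single mutants were not repeated under the alternatives. One group was low where *wc-1* is labelled as deleted. *vvd* averaged 19.2 ± 18.3 CPM in the ∆*ve-1* ∆*wc-1*-labelled libraries, 4.49 ± 2.29 CPM in those labelled ∆*wc-1*, 703 ± 403 CPM in those labelled ∆*ve-1* and 781 ± 275 CPM in the wild type (SD, n = 3 each). The log2 difference of the ∆*ve-1* ∆*wc-1*-labelled libraries was −5.20 (edgeR adjusted p = 0.00146) from ∆*ve-1* and 2.11 (edgeR adjusted p = 0.0468) from the libraries labelled ∆*wc-1*. *frq* followed the same pattern, with differences of −3.42 (edgeR adjusted p = 0.000859) and 1.66 (edgeR adjusted p = 0.0167). Both genes were thus low in both strains labelled as lacking *wc-1*, and by the test higher in the ∆*ve-1* ∆*wc-1*-labelled libraries than in those labelled ∆*wc-1*. For *vvd* these 2 sets of libraries overlapped. Replicate 1 of the ∆*ve-1* ∆*wc-1*-labelled libraries (4.24 CPM) was below the mean of those labelled ∆*wc-1*, and replicate 3 was the highest (39.5 CPM). *NCU17113* differed from ∆*ve-1* by −8.18 (edgeR adjusted p = 0.000859) and *NCU16408* by −8.56 (edgeR adjusted p = 0.00171), and neither difference from the libraries labelled ∆*wc-1* passed the test, at 1.25 (edgeR adjusted p = 0.402) and −1.07 (edgeR adjusted p = 0.600). The carotenoid genes *al-1* and *al-2* were also lower than in ∆*ve-1*, with differences of −4.02 (edgeR adjusted p = 0.0306) and −1.93 (edgeR adjusted p = 0.0203). The difference of *al-3* from ∆*ve-1*, −1.72 (edgeR adjusted p = 0.365), did not pass the test.

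A further group was low where *ve-1* is deleted. *gpr-21* averaged 0.0902 ± 0.0940 CPM in the ∆*ve-1* ∆*wc-1*-labelled libraries, 0.878 ± 0.603 CPM in those labelled ∆*ve-1*, 8.56 ± 2.82 CPM in those labelled ∆*wc-1* and 91.8 ± 56.6 CPM in the wild type. Its log2 difference was −6.36 (edgeR adjusted p = 0.000360) from the libraries labelled ∆*wc-1*, and −3.10 (edgeR adjusted p = 0.152) from ∆*ve-1*, which did not pass the test. *NCU06413* differed by −4.83 (edgeR adjusted p = 2.73e-05) from the libraries labelled ∆*wc-1* and by −0.71 (edgeR adjusted p = 0.731) from ∆*ve-1*. *cat-3* gave −4.55 (edgeR adjusted p = 2.73e-05) and 0.18 (edgeR adjusted p = 0.965), and *pig-1* gave −2.94 (edgeR adjusted p = 0.00493) and −0.47 (edgeR adjusted p = 0.908), in the same order. *NCU09210* and *gao-1* were lower than in either single mutant. *NCU09210* differed by −5.60 (edgeR adjusted p = 0.00184) from ∆*ve-1* and by −3.52 (edgeR adjusted p = 0.00632) from the libraries labelled ∆*wc-1*, and *gao-1* by −3.61 (edgeR adjusted p = 0.00678) and −2.40 (edgeR adjusted p = 0.0143).

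Among the genes that rose, *NCU05236* and *cuo-3* were high in both strains labelled as lacking *wc-1*. *NCU05236* averaged 368 ± 60.03 CPM in the ∆*ve-1* ∆*wc-1*-labelled libraries, 530.2 ± 253 CPM in those labelled ∆*wc-1*, 19.6 ± 1.44 CPM in those labelled ∆*ve-1* and 27.6 ± 6.97 CPM in the wild type. Its log2 difference was 4.23 (edgeR adjusted p = 0.00135) from ∆*ve-1* and −0.53 (edgeR adjusted p = 0.578) from the libraries labelled ∆*wc-1*. For *cuo-3* the differences were 3.15 (edgeR adjusted p = 0.00251) and −1.36 (edgeR adjusted p = 0.0620). *NCU10761* was instead high where *ve-1* is deleted, differing by 5.55 (edgeR adjusted p = 0.000626) from the libraries labelled ∆*wc-1* and by −0.94 (edgeR adjusted p = 0.827) from ∆*ve-1*. *NCU08113*, *NCU07983* and *NCU09464* were higher than in the libraries labelled ∆*wc-1* by the test, at 5.08 (edgeR adjusted p = 0.00339), 7.18 (edgeR adjusted p = 0.000385) and 4.93 (edgeR adjusted p = 0.00130). Their differences from ∆*ve-1* were 2.32, 2.67 and 2.62 and did not pass it (edgeR adjusted p = 0.393, 0.247 and 0.183). All of these comparisons share the same 3 libraries labelled ∆*ve-1* ∆*wc-1*.

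The strain difference was also taken in the dark, where no library is shared with the light comparison. Each ∆*ve-1* ∆*wc-1*-labelled light library was however closer to a dark library of that label than to the other light ones. Whether the light and dark comparisons are independent was not tested. In the dark 1068 genes (11.3% of those tested) were DEGs, 545 higher and 523 lower. Of the 615 DEGs in light, 172 (28.0%) were DEGs of the same direction in the dark, which is 16.1% of the DEGs in the dark, and 13 were DEGs of the opposite direction. The difference between both strain differences was tested directly. It passed the thresholds for 290 genes (3.08% of those tested). Of these, 131 were DEGs in light, beside 6.53% of all genes tested, and both tests use the same light libraries. The count of 290 also moved with single libraries. It was 153 without replicate 1 of the wild type in light, 113 without replicate 1 and 566 without replicate 2 of the light libraries labelled ∆*ve-1* ∆*wc-1*, 171, 97 and 590 without replicates 1, 2 and 3 of the dark libraries of that label, 166 and 140 without replicates 1 and 3 of the wild type in the dark, and 652 without replicate 1 of the light libraries labelled ∆*wc-1*. *ve-1* was lower by about the same amount in both, with a log2 fold change in the dark of −5.50 (edgeR adjusted p = 3.02e-05) and a difference between light and dark of −0.16 (edgeR adjusted p = 0.935). By contrast, *vvd* in the dark averaged 20.7 ± 13.3 CPM in the ∆*ve-1* ∆*wc-1*-labelled libraries and 13.9 ± 4.30 CPM in the wild type, a log2 fold change of 0.57 (edgeR adjusted p = 0.616), and the light and dark strain differences differed by −5.92 (edgeR adjusted p = 0.00383). *al-1*, *al-2*, *con-13*, *NCU16408*, *NCU17113* and *NCU14029* likewise had strain differences in the dark that did not pass the test and differed from those in light.

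The strain difference of *eas* had opposite signs. *eas* averaged in the dark 8821 ± 2142 CPM in the ∆*ve-1* ∆*wc-1*-labelled libraries and 922 ± 715 CPM in the wild type, a log2 fold change of 3.26 (edgeR adjusted p = 0.0355), against −3.83 in light. The summed level of the 8 conidial markers in the dark was 19937, 19222 and 9390.2 CPM in the libraries so labelled, against 3276, 3494 and 1079 CPM in the wild type, and without *eas* it was 9942, 9104 and 3041 CPM, against 1727, 2420.5 and 935 CPM in the wild type. *fl* was also higher in the dark, with a log2 fold change of 2.69 (edgeR adjusted p = 0.0111), and its light and dark strain differences differed by −3.75 (edgeR adjusted p = 0.0246). Across light and dark, the level of *eas* in the ∆*ve-1* ∆*wc-1*-labelled libraries thus stayed between those of the wild type in the dark and in light. *gpr-21*, *NCU06413* and *mkr-5* were lower in both conditions, and further so in light. Their log2 fold changes in the dark were −4.05 (edgeR adjusted p = 0.00353), −3.74 (edgeR adjusted p = 6.92e-05) and −3.29 (edgeR adjusted p = 0.0236). *gnn*, *ccg-9*, *emp-7*, *adh-1*, *cuo-3* and *NCU05236* were DEGs in light and not in the dark, and the difference passed the test for each. For *NCU05236* the mean in the dark was 371 ± 299.7 CPM in the ∆*ve-1* ∆*wc-1*-labelled libraries and 333 ± 269.6 CPM in the wild type. *NCU08113*, *NCU07983* and *NCU09464* were higher in the dark too, at 5.26 (edgeR adjusted p = 0.00274), 7.44 (edgeR adjusted p = 0.000274) and 7.51 (edgeR adjusted p = 0.000105).

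**Figure D4:**
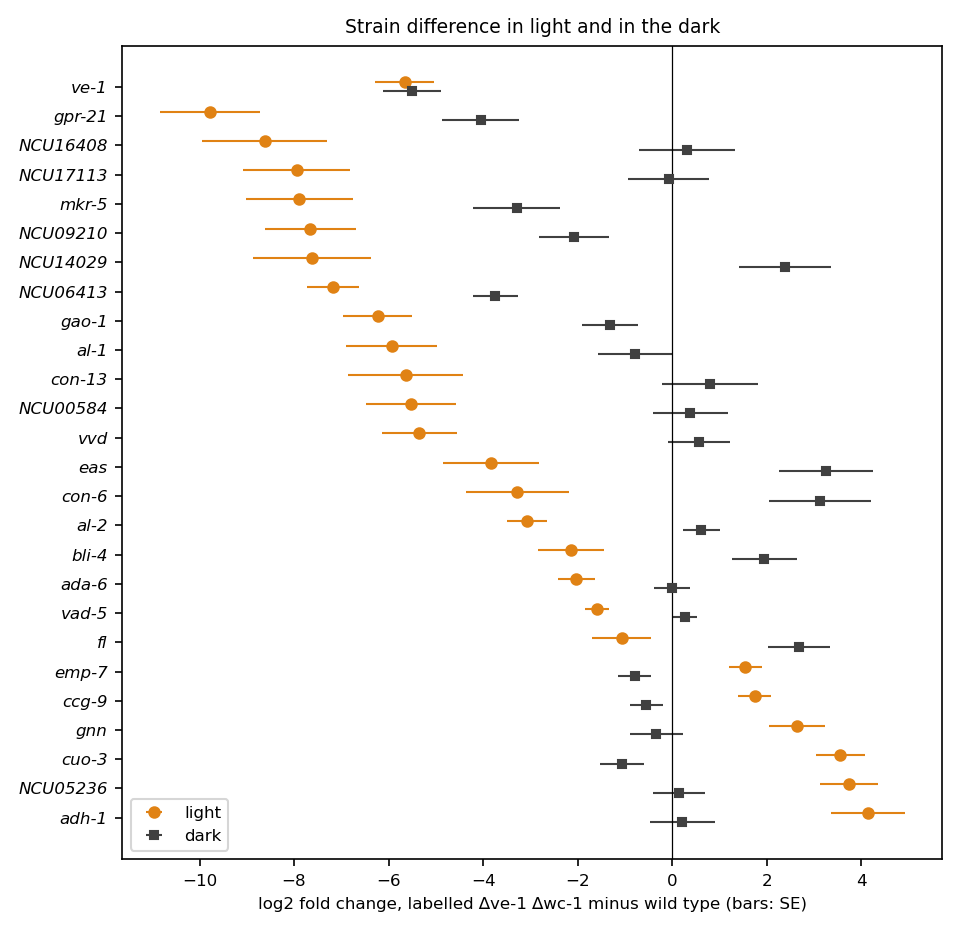
Log2 fold change with its standard error, libraries labelled ∆ve-1 ∆wc-1 minus wild type, in light (orange circles) and in the dark (grey squares), for ve-1 and the 25 genes named in the text or among the further regulators whose difference between the 2 passed the test. For ve-1 the points overlap at −5.66 and −5.50, whereas those of vvd lie at −5.35 in light and 0.57 in the dark, and those of eas at −3.83 and 3.26.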

How the data were processed

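RNA of tissue that forms protoperithecia was sequenced as strand-specific poly(A) libraries. According to the methods and submitters' notes, the authors trimmed reads with fastp, mapped them to the OR74A genome (NC12) with STAR (2.7) and deposited raw counts per gene from featureCounts, without normalization. All 24 libraries (30246878 to 42697941 counts) and all columns were used, with libraries grouped by their labels. Library sizes were scaled with TMM, genes with low counts were removed (filterByExpr, 9412 of 10561 kept), and 1 mean per condition was fitted to all 24 libraries with the quasi-likelihood test of edgeR 4.0.16 (R 4.3.3). P-values were adjusted over all genes tested by Benjamini and Hochberg. The script was tested on simulated data.

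The alternatives were DESeq2 1.42.0, limma 3.58.1 (voom with quality weights), edgeR on the compared libraries only, RLE scaling, no filter, a filter of 5 CPM in 3 libraries, the replicate number as a block, each library left out, and 2 library properties as covariates (the share of the 10 most abundant genes and of even counts). The leave-one-out counts of DEGs per list were added after seeing the data. Named genes are the DEGs of 20 lists and members that define a list. To these were added the 10 higher and 10 lower DEGs of largest change and the 5 and 5 of highest mean, among DEGs without overlap, with at least 10 CPM in the higher mean, that were called with each of the 6 libraries left out. The members and lists were chosen with earlier results of these data known, and the genes named although they were not DEGs were chosen after their values were seen. Coordinates and symbols are from RefSeq (NC12), which held all 10561 genes. No sequences are shown. Python 3.11.15 with matplotlib 3.10.9 drew the figures.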

Additional observations from a re-analysis of the deposited data

Results flagged for a closer look

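The strain difference, the ∆*ve-1* ∆*wc-1*-labelled libraries minus the wild type, was not the same in light as in the dark for 290 genes, by a test of the difference itself (edgeR's quasi-likelihood test, adjusted p below 0.05 and an absolute log2 difference above 1). Among genes described above, the light value was below the dark value by this test for light-response and conidial genes, with log2 differences of −5.92 for *vvd*, −5.14 for *al-1*, −3.69 for *al-2*, −5.91 for *NCU00584*, −6.40 for *con-6*, −6.44 for *con-13*, −7.09 for *eas*, −4.08 for *bli-4* and −3.75 for *fl*. The same direction was found for genes named by size of change, at −10.0006 for *NCU14029*, −8.93 for *NCU16408*, −7.87 for *NCU17113*, −5.73 for *gpr-21*, −5.58 for *NCU09210*, −4.91 for *gao-1*, −4.60 for *mkr-5* and −3.44 for *NCU06413*, and for 2 further regulators, at −2.02 for *ada-6* and −1.85 for *vad-5*. The light value was above the dark value for 6 genes, at 4.62 for *cuo-3*, 3.93 for *adh-1*, 3.58 for *NCU05236*, 2.97 for *gnn*, 2.34 for *emp-7* and 2.29 for *ccg-9*.

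Of these genes, *con-6*, *bli-4* and *fl* were not DEGs in light. For *con-6* and *bli-4* all libraries labelled ∆*ve-1* ∆*wc-1* were below the wild type in light, and for *fl* they overlapped. In the dark, *con-6* averaged 1778 ± 837 CPM in the ∆*ve-1* ∆*wc-1*-labelled libraries and 204 ± 202 CPM in the wild type, and *bli-4* averaged 122 ± 49.6 CPM and 31.6 ± 24.2 CPM in the same order, and *fl* 224 ± 140.2 CPM and 34.8 ± 17 CPM (SD, n = 3 each).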

How the results depend on the processing

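The direction of the named DEGs was the same under every alternative tried. For the 56 named DEGs, 1904 alternative values were computed, of which 1745 were on the same side of the threshold, 159 had lost the call and 0 had changed sign. A total of 22 of these genes lost no call under any alternative, and 37 lost none with the 6 compared libraries left out. For the 25 genes named by size of change or abundance, being called with each of the 6 libraries left out was a condition of selection. Their calls in those fits were thus fixed in advance and say nothing about stability. Signs changed for genes that were not DEGs. With the share of the 10 most abundant genes as a covariate, the log2 fold change was −0.43 for *wc-1*, −0.47 for *mak-2*, −0.19 for *mek-2*, −0.32 for *pp-1* and −0.84 for *nox-1*, and with the share of even counts it was −0.21, −0.51, −0.16, −0.31 and −0.92 in the same order. *nox-1* was also at −0.0035 (DESeq2 on the 6 libraries), −0.0043 (edgeR on the 6 libraries) and −0.0011 (stricter filter). Leaving out single libraries gave −0.55 to 1.21 for *wc-1*, −1.67 to 0.62 for *con-10*, −0.0041 to 0.48 for *mak-2*, −0.18 to 0.11 for *nrc-1*, −0.29 to 0.24 for *mak-1*, and −0.22 to 0.33 for *nox-1*. Calls were gained by *phy-1* in DESeq2 on all libraries (1.58, adjusted p = 0.0244) and without replicate 3 of the wild type (2.26, edgeR adjusted p = 0.0177), and by *vos-1* with the covariates (−2.61 and −2.53, edgeR adjusted p = 0.00492 and 0.0134).

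The number of DEGs depended on the tool and samples. DESeq2 on all libraries gave 1082 (561 higher and 521 lower), edgeR on the 6 libraries alone 206 (48 and 158), and limma-voom with quality weights 424 (128 and 296). The covariates gave 1178 (497 and 681) for the 10 most abundant genes and 1223 (498 and 725) for even counts. Leaving out 1 library at a time gave 214 to 1086, with 74 to 558 higher and 140 to 528 lower. The difference between light and dark gave 755 genes with DESeq2 on all libraries, 606 with DESeq2 on the 12 libraries compared, 84 with edgeR on those 12, and 97 to 652 with 1 library left out. The cause of these shifts was not tested. RLE normalization (614), no filter (580), a stricter filter (584) and DESeq2 on the 6 libraries (622) kept the count within 1.5 times. Fitting the replicate number as a block gave 505 DEGs (223 higher and 282 lower), and the block left *tre-1*, *ty-6*, *hsp98* and *hH4-1* uncalled (edgeR adjusted p = 0.057, 0.0578, 0.0665 and 0.0649) among the named DEGs. Pairing by number was examined through log CPM deviations from the mean of each label. These deviations correlated by 0.148, 0.047 and 0.350 for same-numbered libraries, and by −0.276 to 0.103 for differently numbered ones. These values do not settle whether the numbers are pairs, and the labels do not say so. The main fit did not treat them as pairs. Low counts limit the size of the largest falls, where some libraries held 0 counts.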

Other observations

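All genes in this part were chosen after their values were seen. Regulators outside the lists were among the DEGs. *fld* had 33.1, 89.6 and 30.3 CPM in the ∆*ve-1* ∆*wc-1*-labelled libraries, against 434, 413 and 182 CPM in the wild type, a log2 fold change of −2.75 (edgeR adjusted p = 0.00263). *ada-6*, needed for all phases of development, had 34, 16.7 and 34.4 CPM, against 102, 96.5 and 149 CPM in the wild type (−2.03, edgeR adjusted p = 0.00361). *sah-1* and *vad-5* were lower as well, with log2 fold changes of −2.09 (edgeR adjusted p = 0.0270) and −1.59 (edgeR adjusted p = 0.000887). *sah-1* was not called without replicate 1 or 3 of the wild type (edgeR adjusted p = 0.0682 and 0.0558) or replicate 2 or 3 of the ∆*ve-1* ∆*wc-1*-labelled libraries (0.0945 and 0.0723). *vad-5* was also not called with edgeR on the 6 libraries alone (adjusted p = 0.0648). Of the 79 glycoside hydrolase genes tested, 10 were lower and 3 were higher (16.5% called, beside 6.53% of all genes tested), with a median log2 fold change of 0.17. The chitinase gene *gh18-4* had a log2 fold change of −4.23 (edgeR adjusted p = 0.0107), and *gh3-4* one of 2.41 (edgeR adjusted p = 0.00415). *gh18-4* was not called without replicate 3 of the ∆*ve-1* ∆*wc-1*-labelled libraries (edgeR adjusted p = 0.0623). *gh18-4* was also not called with limma-voom (adjusted p = 0.154). *gh3-4* was also not called with limma-voom (adjusted p = 0.0676).

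Among 6 heat shock protein genes, *hsp98* (1.38, edgeR adjusted p = 0.0491) and *hsp78* (1.27, edgeR adjusted p = 0.00589) were higher, which is 33.3% of the family beside 6.53% of all genes tested, with a family median of 1.08. *hsp98* was not called without replicate 1 or 2 of the wild type (edgeR adjusted p = 0.209 and 0.155) or replicate 2 or 3 of the ∆*ve-1* ∆*wc-1*-labelled libraries (0.0777 and 0.208). *hsp98* was also not called with DESeq2 on the 6 libraries (adjusted p = 0.0798), edgeR on the 6 libraries alone (0.208), no filter (0.0526), the top-10 share as a covariate (0.130) or the even-count share as a covariate (0.125). *hsp78* was also not called with DESeq2 on the 6 libraries (adjusted p = 0.0726) or edgeR on the 6 libraries alone (0.133). Of 9 histone genes, *hH2A* and *hH4-1* were lower, with log2 fold changes of −1.68 (edgeR adjusted p = 0.0166) and −1.22 (edgeR adjusted p = 0.0427) and a family median of −0.95 (22.2% called). *hH2A* was not called without replicate 1 of the wild type (edgeR adjusted p = 0.0931) or replicate 2 or 3 of the ∆*ve-1* ∆*wc-1*-labelled libraries (0.0592 and 0.0916), and *hH4-1* without replicate 1 or 2 of the wild type (0.134 and 0.155) or replicate 2 or 3 of the ∆*ve-1* ∆*wc-1*-labelled libraries (0.112 and 0.162). *hH2A* was also not called with edgeR on the 6 libraries alone (adjusted p = 0.258). *hH4-1* was also not called with DESeq2 on the 6 libraries (adjusted p = 0.0890), edgeR on the 6 libraries alone (0.355) or no filter (0.0512). Histone genes of the same type share sequence, so reads may have been split between copies, and these values are uncertain. No DEG was found among 21 *mus* genes of DNA repair, 13 *vma* genes of the vacuolar ATPase or 12 *rpn* genes of the proteasome, with medians of 0.27, 0.00 and 0.15. Beside 6.53% of all genes tested, few would be found in families of these sizes.

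DEGs of the same direction stood side by side in 3 runs of at least 3 neighbouring tested genes. On chromosome I, *NCU08087*, *NCU16306* and *NCU08090* were lower, between positions 219396 and 228981 of the NC12 assembly. On chromosome VII, *NCU05819* and *NCU05820* were lower together with the melanin gene *pig-1*, between positions 3931845 and 3939730. On chromosome III, *NCU08783*, *NCU11288* and *NCU11289* were higher, between positions 5135492 and 5142693.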
